A study of Homo sapiens with 4 samples.

Results

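IL1A, IL1B, IL1RN, IL6, TNF, LIF, CSF1, CSF2, CSF3 and IL15 encode secreted inflammatory cytokines, an antagonist among them, that epithelial cells can make. They were taken as the spots, other than array controls, that carry these gene names on the arrays, and amounted to 42 of 43118 spots, 15 of 34127 probes and 10 of 27193 genes. After the filter on dim probes all 10 were among the 21921 genes tested, CSF2 only through the PAK1 shRNA arrays, since its probe was not well above background on either control array.

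Total RNA was measured on 4 Agilent 1-colour arrays, 2 of MCF10A.B2 cells labelled control and 2 of that line with a shRNA against PAK1, the p21-activated kinase that the study depleted. MCF10A is a non-tumorigenic human breast epithelial line, although the labels give the diagnosis breast cancer, and B2 marks a chimeric ErbB2 (HER2) receptor that the dimerizer AP1510 switches on. Cells of both groups were grown with 5% horse serum, starved of serum for 3 h and given AP1510 for 15 min, so no array shows cells without receptor activation. The series description calls the shRNA Tet-inducible and speaks of cells from tumors, whereas the sample labels name the cell line. The labels do not say whether the control cells were parental or uninduced, no array of a non-targeting shRNA was analysed here, and the origin of the replicates is not given. The p-values therefore measure the spread between these samples, which may be technical.

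Interleukin-1 alpha and beta signal through a shared receptor and the adaptor MYD88 to NF-kB and MAP kinases, and the product of IL1RN occupies that receptor without signalling. Cytokines of this kind are induced together with IL6, LIF and the colony-stimulating factors in wounded or infected epithelium, and their mRNAs are short-lived through AU-rich elements. Some of these proteins need a later step, by a caspase, a pore or a sheddase, before they leave the cell, so a level of mRNA is not a level of secreted protein.

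The promoters of 6 of the 10 genes were found in a RefSeq table (assembly GRCh38.p14), with 9 transcription starts in all, and the 250 bases before a start are printed 5′ to 3′ for IL6 and TNF, which rose most among the 6, and for the IL-1 genes and their antagonist, which rose unequally. They lie at chr7:22726950-22727199 on the plus strand for IL6, chr6:31575315-31575564 on the plus strand for TNF, chr2:112784494-112784743 on the minus strand for IL1A, chr2:112836780-112837029 on the minus strand for IL1B and chr2:113127239-113127488 on the plus strand for IL1RN. Capitals mark matches to the NF-kB consensus, to the AP-1 motif TGANTCA and to the interferon-stimulated response element (GAAA, any 2 bases, GAAA), each searched on both strands.
IL6: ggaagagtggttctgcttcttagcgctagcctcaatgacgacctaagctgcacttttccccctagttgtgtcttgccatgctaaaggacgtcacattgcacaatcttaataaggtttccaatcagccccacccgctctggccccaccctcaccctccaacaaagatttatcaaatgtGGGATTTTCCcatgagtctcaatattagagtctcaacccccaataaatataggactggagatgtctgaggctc
TNF: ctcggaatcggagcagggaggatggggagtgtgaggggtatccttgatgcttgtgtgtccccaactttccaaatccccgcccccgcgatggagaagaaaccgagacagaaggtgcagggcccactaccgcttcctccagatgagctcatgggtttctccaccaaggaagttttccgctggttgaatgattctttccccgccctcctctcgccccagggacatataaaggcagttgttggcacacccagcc
IL1A: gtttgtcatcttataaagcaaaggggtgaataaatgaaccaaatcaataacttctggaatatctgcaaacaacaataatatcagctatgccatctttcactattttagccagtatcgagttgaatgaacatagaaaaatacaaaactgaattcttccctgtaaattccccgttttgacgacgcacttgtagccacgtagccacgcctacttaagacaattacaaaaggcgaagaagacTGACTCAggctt
IL1B: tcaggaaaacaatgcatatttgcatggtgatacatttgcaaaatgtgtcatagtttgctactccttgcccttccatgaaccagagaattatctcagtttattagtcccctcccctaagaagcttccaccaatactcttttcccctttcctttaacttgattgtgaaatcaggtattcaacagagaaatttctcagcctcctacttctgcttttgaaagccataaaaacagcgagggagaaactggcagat
IL1RN: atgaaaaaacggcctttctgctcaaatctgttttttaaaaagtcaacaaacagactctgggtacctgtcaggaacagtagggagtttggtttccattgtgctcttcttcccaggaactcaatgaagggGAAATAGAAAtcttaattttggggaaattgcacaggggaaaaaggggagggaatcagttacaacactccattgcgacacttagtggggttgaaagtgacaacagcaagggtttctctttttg
The IL6 promoter held an NF-kB match at -73 to -64 from the start of transcription, and 9.96% of all 35116 promoters of this length held at least 1. The IL1A promoter held an AP-1 match at -12 to -6, against 6.57% of all promoters with 1, and the IL1RN promoter held a response element match at -122 to -113, against 3.02% of all promoters. The printed TNF and IL1B windows, and the CSF2 window, held none of these 3 motifs. A motif of C/EBP factors, TTNNGNAA, was matched in all 5 printed promoters, and 33.2% of all promoters held it. Other starts of the same genes differed. The second IL1A start had AP-1 matches at -105 to -99 and -55 to -49, the first IL1RN start had an AP-1 match at -223 to -217 and no response element, and the third, whose window overlaps the printed one, held the same response element letters at -231 to -222. Each share over all promoters counts single windows, so a gene with several starts has more chances of a match. The TATAAA box, in 10.7% of all promoters, was matched at -29 to -24 in TNF, at -30 to -25 before the third IL1RN start and at -239 to -234 in IL1A. A match describes letters only.

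The target came first. PAK1 had normalized log2 intensities of 11.19 and 11.27 in control cells, against 10.44 and 10.51 in the others, so both groups were apart and PAK1 was lower in the cells labelled with the shRNA. Its change was -0.76 on the log2 scale (standard error 0.076, adjusted p = 0.00018, limma with Benjamini-Hochberg adjustment over all genes tested), by a probe at chr11:77034135-77034194 (hg19, as all probe positions here). Of 12 markers of basal mammary epithelium, from keratins KRT5 and KRT14 to the transcription factor TP63, all 12 were well above background on all 4 arrays. So were 9 leukocyte and 4 endothelial markers, and 78.7% to 83% of all probes on an array. This count therefore names no cell type, and the changes of the markers are given below.

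All 10 cytokine genes were higher in PAK1 shRNA cells at an adjusted p under 0.05 and none was lower, whereas 32% of all genes were lower at that threshold. CSF2 entered the test only through the PAK1 shRNA arrays, where it was higher, so its direction adds no support to this count. With only probes well above background on all 4 arrays, 7 cytokine genes were tested and called higher at the same threshold. Of all genes tested, 62.6% passed that threshold in either direction and 30.6% passed it as higher. The median log2 fold change of the cytokine genes, CSF2 included, was 1.73, against 0.017 over all genes, whose median absolute value was 0.38. Of the cytokine genes 6 at least doubled, namely IL6, CSF3, TNF, LIF, IL1RN and IL15, against 8.8% of all genes that were called with a rise of 2-fold or more. Both PAK1 shRNA arrays lay above both control arrays in 8 of the 8 cytokine genes measured on all 4 arrays. CSF2 is among these 8, and its direction adds no support here either. The groups did not overlap, in either direction, in 78.3% of all 21921 genes tested. That share counts genes lacking an array as overlapping. For any gene taken alone, the smallest p that exact two-sided permutation allows with 2 arrays a group is 0.333.

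**Figure D1:**
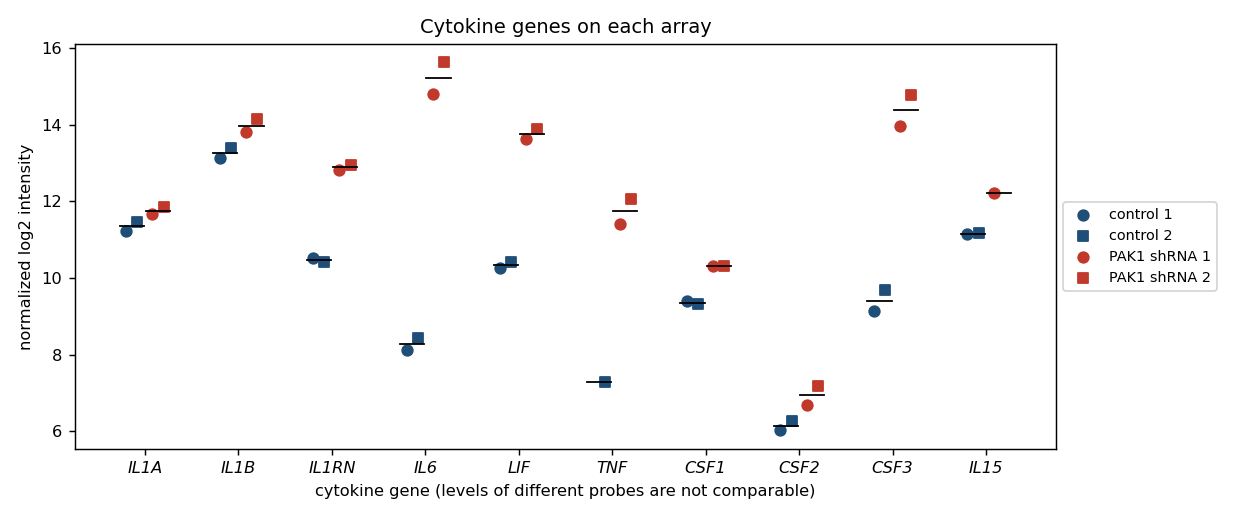
Normalized log2 intensity of the probe used for each cytokine gene (y axis) on the 2 control arrays (blue) and the 2 PAK1 shRNA arrays (red), with replicate 1 as circles, replicate 2 as squares and black lines at the group means. Every PAK1 shRNA point lies above the control points of its gene, from IL1A (11.67 and 11.84 against 11.23 and 11.46) to IL6 (14.80 and 15.63 against 8.12 and 8.43), and TNF and IL15 lack 1 flagged spot each.

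IL6, which encodes a cytokine acting through IL6R and the shared receptor chain IL6ST to STAT3, had the largest change of the 10. Each array held its probe in 10 spots, at chr7:22771207-22771266, and all were well above background on every array. The median processed signal of these spots, before any scaling between arrays, was 282 and 268 in control cells, and it reached 22973 and 41165 in PAK1 shRNA cells. The coefficient of variation among the 10 spots of an array ran from 7.91% to 15.7%, which covers spot-to-spot error only. After normalization without the 1 or 2 flagged spots of an array the log2 intensities were 8.12 and 8.43 in control cells against 14.80 and 15.63 in PAK1 shRNA cells. IL6 thus rose by 6.94 on the log2 scale (standard error 0.26, 95% confidence interval 6.32 to 7.55, adjusted p = 2.8e-06, limma), which is 122-fold. Among all genes tested, 17 had a larger log2 fold change than IL6.

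LIF, a relative of IL6 that binds LIFR and the same IL6ST chain, rose as well. Its brighter probe, at chr22:30636713-30636772, read 10.26 and 10.41 in control cells against 13.63 and 13.88 in PAK1 shRNA cells (normalized log2 intensity). That is a log2 fold change of 3.42 (standard error 0.11, adjusted p = 1.7e-06, limma), or 10.7-fold, with the arrays of each group close together. A dimmer probe 2948 bases away gave 1.06 (standard error 0.098), in the same direction and much smaller, and the mean over both probes was 2.24.

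TNF encodes tumor necrosis factor, made as a membrane protein and shed by ADAM17. Its single spot per array, at chr6:31545837-31545896, was marked by the scanner software as non-uniform on the control 1 array and was left out there. The remaining normalized log2 intensities were 7.29 for control 2 and 11.40 and 12.07 for the PAK1 shRNA arrays. The rise of 4.44 (standard error 0.27, adjusted p = 5.3e-05, limma) therefore rests on 1 control array. The processed signal of the left-out spot was 444, against 93.0 on control 2 and 2269 and 3649 on the PAK1 shRNA arrays, and with it kept the log2 fold change was 3.82. Over the other settings it ran from 3.38, with the background fit on all spots, to 5.30, with each array scaled by the 75th percentile of its processed signal.

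IL1A, whose product is active as a precursor and is released by damaged cells, read 11.23 and 11.46 in control cells and 11.67 and 11.84 in PAK1 shRNA cells (normalized log2 intensity, the mean of up to 10 spots on each array after flagged ones were left out, chr2:113532362-113532421). The groups did not overlap, but the gap between them was about as wide as that between the control arrays. IL1A rose by 0.41 on the log2 scale (standard error 0.11, 95% confidence interval 0.15 to 0.66, adjusted p = 0.014, limma), or 1.33-fold. It did not pass the threshold without control 1 (0.29, adjusted p = 0.061) or without PAK1 shRNA 2 (0.32, adjusted p = 0.084, both limma). Its processed signal before scaling was 2972 and 2702 in control cells against 2509 and 2790 in PAK1 shRNA cells, and without scaling between arrays the log2 fold change was -0.099, so the direction of IL1A depended on the scaling.

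IL1B, whose precursor needs caspase-1 to become active, read 13.12 and 13.40 in control cells and 13.80 and 14.14 in PAK1 shRNA cells (10 spots on each array, chr2:113587429-113587488). Both PAK1 shRNA arrays lay above both control arrays, by 0.71 on the log2 scale on average (standard error 0.14, 95% confidence interval 0.37 to 1.05, adjusted p = 0.0045, limma), or 1.64-fold. Without scaling between arrays it was 0.28.

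IL1RN, the receptor antagonist, rose more than either agonist by its brighter probe. This probe, at chr2:113891531-113891590, read 10.53 and 10.42 in control cells and 12.83 and 12.94 in PAK1 shRNA cells, higher by 2.41 on the log2 scale (standard error 0.083, adjusted p = 2.2e-06, limma), or 5.30-fold. The difference from the change of IL1A was 2.00 and from that of IL1B 1.70 on the log2 scale, each with an exact two-sided permutation p of 0.333 over the 4 arrays, the smallest possible. A dimmer IL1RN probe 892 bases upstream gave 0.81 (standard error 0.075), close to the value of IL1B, and the mean over both probes was 1.61. The size of the antagonist's lead over the agonists thus depended on the probe.

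The colony-stimulating factors differed among themselves. CSF3, the granulocyte factor G-CSF, read 9.13 and 9.68 in control cells and 13.98 and 14.77 in PAK1 shRNA cells at chr17:38173710-38173769 (normalized log2 intensity). The gap between groups was many times the spread inside either, and the rise was 4.97 on the log2 scale (standard error 0.28, 95% confidence interval 4.30 to 5.64, adjusted p = 1.4e-05, limma), or 31.4-fold, and 56 genes had a larger one. A probe 459 bases away gave 4.20 (standard error 0.25).

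CSF1, the macrophage factor M-CSF, had 3 probes. The brightest, at chr1:110469302-110469361, read 9.40 and 9.31 in control cells and 10.32 and 10.31 in PAK1 shRNA cells, so the replicates were nearly level and the groups were apart. CSF1 rose by 0.96 on the log2 scale (standard error 0.075, adjusted p = 5.7e-05, limma), or 1.94-fold. The other probes, 2938 bases downstream and 3165 bases upstream, gave 0.98 and 0.62. Without scaling between arrays the brightest probe gave 0.46.

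CSF2, the granulocyte-macrophage factor GM-CSF, was near background. Its probe, at chr5:131411452-131411511, was not well above background on either control array, where it read 6.02 and 6.27, and was above it on both PAK1 shRNA arrays, at 6.68 and 7.19. With the normalization used here, CSF2 was therefore higher by at least 1.67-fold in PAK1 shRNA cells (fit: adjusted p = 0.0069, limma), a bound that sets the mean of those arrays against, on each control array, the higher of the probe's own value and the lowest signal well above background. The fitted log2 fold change of 0.79 was 0.40 with the background fit on all spots, 0.62 without background correction and 0.55 without PAK1 shRNA 2, each below that bound, and it moved to 3.94 when the processed signal was scaled by its 75th percentile, where no offset is added to signals near 0.

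IL15, a growth factor for natural killer and T cells that is presented on IL15RA, read 11.13 and 11.17 in control cells and 12.21 on PAK1 shRNA 1. The spot on PAK1 shRNA 2 had a flagged local background and was left out, so the rise of 1.05 (standard error 0.094, adjusted p = 0.00025, limma), or 2.08-fold, rests on 1 PAK1 shRNA array. With the flagged spot kept it was 1.11. Without scaling between arrays it was 0.54. The probe lies at chr4:142654431-142654490.

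**Figure D2:**
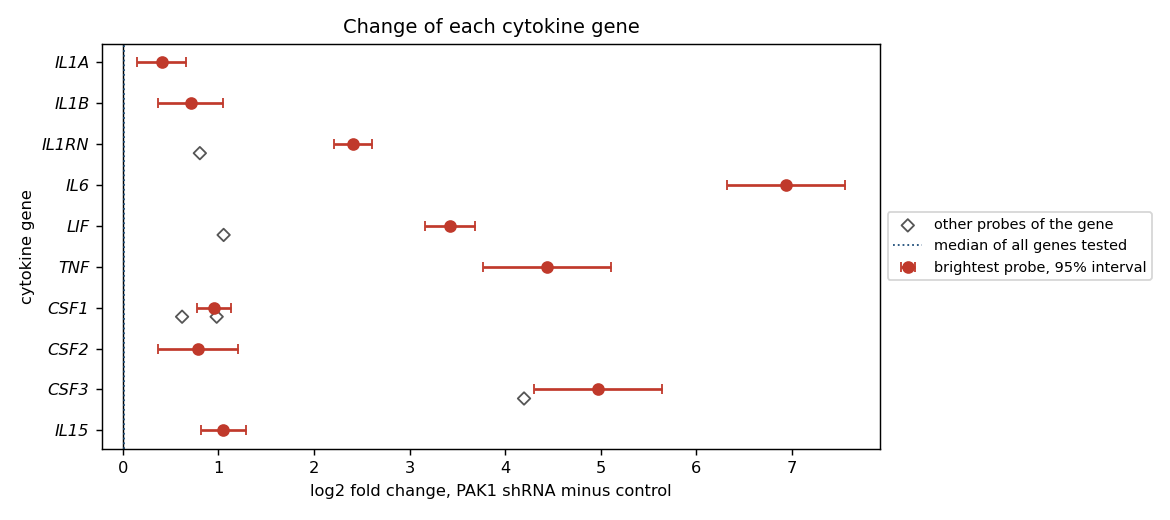
Log2 fold change of each cytokine gene, PAK1 shRNA minus control (x axis), for the brightest probe with its 95% confidence interval from limma (red) and for the other probes of the gene (open diamonds), with the median of all genes tested at 0.017 (dotted line). IL6 stands alone at 6.94, the other probes of IL1RN (0.81) and LIF (1.06) lie well below the brightest, and the value of CSF2 is a fitted one against control spots that were not well above background.

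Ordered by log2 fold change, the 9 genes other than CSF2 ran IL6, CSF3, TNF, LIF, IL1RN, IL15, CSF1, IL1B and IL1A, and CSF2 was given no place because its control spots were not well above background. The 95% confidence intervals of CSF3 and TNF overlapped, as did those of each neighbouring pair from IL15 down to IL1A, and those of IL6 and CSF3, TNF and LIF, LIF and IL1RN, and IL1RN and IL15 did not. These pairs were compared by their intervals only. The TNF interval (3.77 to 5.11) and the LIF interval (3.16 to 3.68) lay close, and TNF with the flagged spot kept was at 3.82.

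The arrays of a group also differed in a common direction for these genes. PAK1 shRNA 2 was above PAK1 shRNA 1 in 8 of the 9 cytokine genes measured on both, by a median of 0.35 on the log2 scale, whereas 46.4% of all genes were and the median over all genes was -0.0098. Among the control arrays, control 2 was above control 1 in 7 of 9, by a median of 0.23. Over all genes it was above in 10915 of 21443, with a median of 0.0029. The deviations of the replicates thus shared a direction among these genes, which do not count as independent observations.

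The overall brightness of the arrays moved with the groups. The 75th percentile of the processed signal was 3299 and 2582 for the controls against 2025 and 1991 for PAK1 shRNA. The share of probes well above background did not separate the groups, at 83% and 79% for the controls against 80% and 78.7% for PAK1 shRNA. Quantile normalization removes the difference in brightness. Without scaling between arrays, a setting chosen after seeing the data, the median of all genes shifted to -0.29, and 2362 genes were called higher and 8856 lower, against 6706 and 7010 with quantile normalization. The unscaled log2 fold changes were 6.55 for IL6, 4.51 for CSF3, 4.20 for TNF, 2.96 for LIF and 1.90 for IL1RN. Scaling by the 75th percentile or by the median put the median of all genes at 0.11 and 0.14. The part of this difference in the cytokine results was not tested further.

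**Figure D3:**
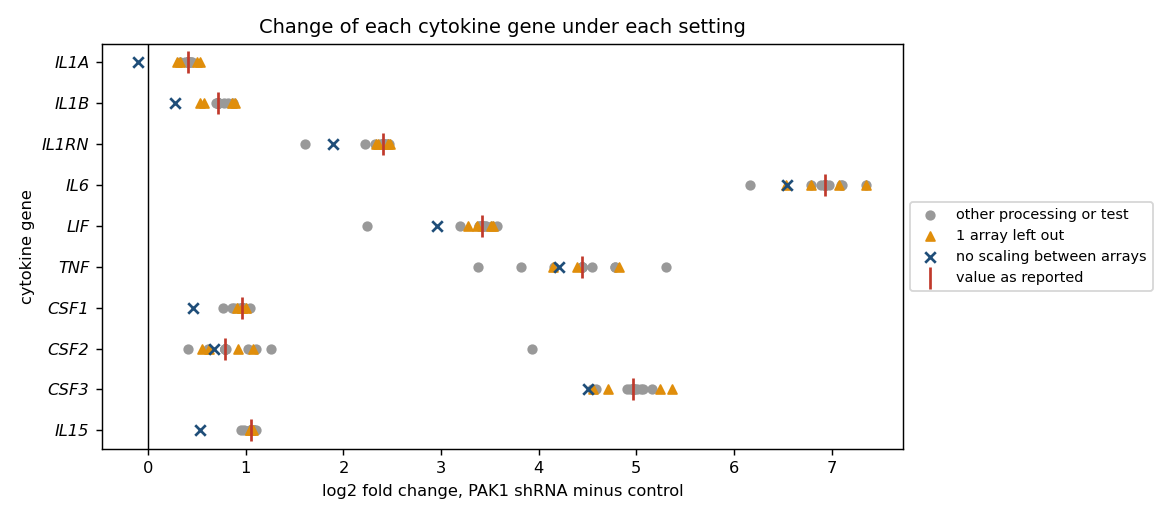
Log2 fold change of each cytokine gene, PAK1 shRNA minus control (x axis), as reported (red bars), under other processing or tests (grey points), with 1 array left out (orange triangles) and without scaling between arrays (blue crosses). IL6, CSF3, TNF, LIF and IL1RN stay at 1.61 or higher, IL1A reaches -0.099 without scaling, and CSF2 runs from 0.40 to 3.94.

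Leukocytes are a further source of these cytokines in tissue. Of 10 leukocyte markers, 9 were on the array and all 9 were well above background on all 4 arrays. Their summed linear level, to which CD14 adds most, was 21008 to 22112 in control cells and 53927 to 59321 in PAK1 shRNA cells. The defining marker PTPRC (CD45) read 7.64 and 7.79 in control cells and 7.85 and 7.83 in PAK1 shRNA cells, a log2 fold change of 0.12 (adjusted p = 0.23, limma), and CD3E, MS4A1 and CD163 did not pass the threshold either. The 4 that rose were CD68 (3.75), CD14 (1.23, without the flagged spot of PAK1 shRNA 2), CSF1R (0.65) and ITGAM (0.46). Of 5 fibroblast markers, PDGFRA, COL1A2 and COL3A1 were well above background on none of the arrays, while DCN rose by 0.87 and LUM by 1.79. The summed level of 4 endothelial markers was 1053 to 1088 in control cells and 861 to 879 in PAK1 shRNA cells, where PECAM1 fell by 1.56, VWF rose by 0.37 and CDH5 and KDR did not pass the threshold. The basal markers were split, with 5 higher, 5 lower and a median log2 fold change of -0.018. KRT5 fell by 1.20, TP63 by 1.13, KRT14 by 0.98, KRT17 by 0.75 and EGFR by 0.56, while those that rose included LAMB3 (1.19, without the flagged spot of PAK1 shRNA 2), CDH1 (0.95), CDH3 (0.86) and KRT6A (0.28). Their summed level, to which bright genes such as LAMB3 add most, was 620467 to 692677 in control cells and 835106 to 866555 in PAK1 shRNA cells. The part of these markers in the cytokine results was not tested, and in bulk RNA fewer cells of a type and less RNA per cell cannot be told apart.

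Of 15 receptor chains for these cytokines, 8 were higher, 1 was lower and 6 did not pass the threshold, with a median log2 fold change of 0.45. Over all genes 62.6% were called, 30.6% as higher and 32% as lower, and the counts of this and the following lists stand beside those shares. The chains of the IL-15 receptor went apart. IL15RA, which presents IL-15, read 10.23 and 10.10 in control cells and 12.77 and 12.94 in PAK1 shRNA cells, a log2 fold change of 2.69 (standard error 0.093, adjusted p = 2.2e-06, limma). The common chain IL2RG rose by 1.29 (standard error 0.12, adjusted p = 0.00013, limma). The signalling chain IL2RB read 8.13 and 8.24 in control cells and was not well above background on either PAK1 shRNA array, so it was at least 3.80-fold lower there (adjusted p = 7.3e-06, limma). IL2RB entered the test only through the control arrays, where it was higher, so its direction adds no support to the contrast of these chains.

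For the IL-1 receptor, the signalling chains IL1R1 (log2 fold change -0.12, adjusted p = 0.23) and IL1RAP (-0.039, adjusted p = 0.66) did not pass the limma threshold. The decoy receptor IL1R2 was not well above background on either control array and read 7.23 and 7.84 in PAK1 shRNA cells, higher by at least 2.32-fold (adjusted p = 0.0014, limma). This bound equals the measured difference, because the probe's own control values lay above the lowest signal well above background, and IL1R2 entered the test only through the PAK1 shRNA arrays.

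In the IL-6 group, LIFR rose by 1.14 (standard error 0.12, adjusted p = 0.00022, limma) and the shared chain IL6ST by 0.45 (standard error 0.097, adjusted p = 0.0065). IL6R, the chain specific to IL-6, had a log2 fold change of -0.17 (adjusted p = 0.27). Of the TNF receptors, TNFRSF1A rose by 0.48 (adjusted p = 0.0016), while TNFRSF1B at 0.18 had an adjusted p of 0.068. CSF1R rose by 0.65 (adjusted p = 0.0018) and CSF3R by 0.45 (adjusted p = 0.0055). The chains of the GM-CSF receptor, CSF2RA at 0.0087 and CSF2RB at 0.088, did not pass the threshold (adjusted p = 0.94 and 0.33).

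Genes that process or release these cytokines had a median log2 fold change of 1.16, with 7 of 11 higher, 1 lower and 3 not past the threshold. CASP1, the protease that matures IL-1 beta, read 12.84 and 12.89 in control cells and 14.34 and 14.51 in PAK1 shRNA cells, a rise of 1.56 (standard error 0.086, adjusted p = 1.3e-05, limma). The related inflammatory caspases CASP5 and CASP4 rose by 1.40 and 1.16, and GSDMD, which forms the membrane pore, by 1.31. RHBDF2, a partner of the TNF sheddase ADAM17, rose by 1.87 (standard error 0.10, adjusted p = 1.4e-05, limma) and the sheddase ADAM10 by 1.54. ADAM17 itself rose by 1.01 with control 2 left out for a flagged spot. The protease subunit CAPN1, a calpain of the kind that cleaves pro-IL-1 alpha, was the gene that fell (-0.43, adjusted p = 0.0026, limma).

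Of 13 tested genes close to the IL-1 and TNF receptors, 8 were higher, 2 lower and 3 did not pass the threshold, with a median of 0.49, and IRAK3 was dim and not tested. The adaptor MYD88 rose by 3.09 (standard error 0.087, adjusted p = 1.1e-06, limma), from 11.37 and 11.25 to 14.33 and 14.47. The kinase IRAK2 rose by 2.89 and the TNF receptor partners TRADD and RIPK1 by 1.45 and 1.01. The kinase IRAK1 fell by 0.46 and its downstream partner TAB1 by 0.33 on the log2 scale.

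Regulators that bind AU-rich or structured elements of cytokine mRNAs had no common direction, with 4 higher, 4 lower and 3 not past the threshold of 11, near the shares over all genes, and a median of 0.015. The endonuclease ZC3H12A (regnase-1), which degrades IL6 mRNA, rose by 1.96 (standard error 0.11, adjusted p = 1.2e-05, limma). The destabilizing proteins ZFP36L2 and ZFP36 (tristetraprolin) rose by 1.38 and 1.08 and the translational repressor TIA1 by 1.10. The stabilizing protein ELAVL1 (HuR) fell by 1.39 (standard error 0.076, adjusted p = 1.3e-05, limma). KHSRP (-0.81), HNRNPD (-0.78) and ZFP36L1 (-0.34), which promote decay, were lower too.

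**Figure D4:**
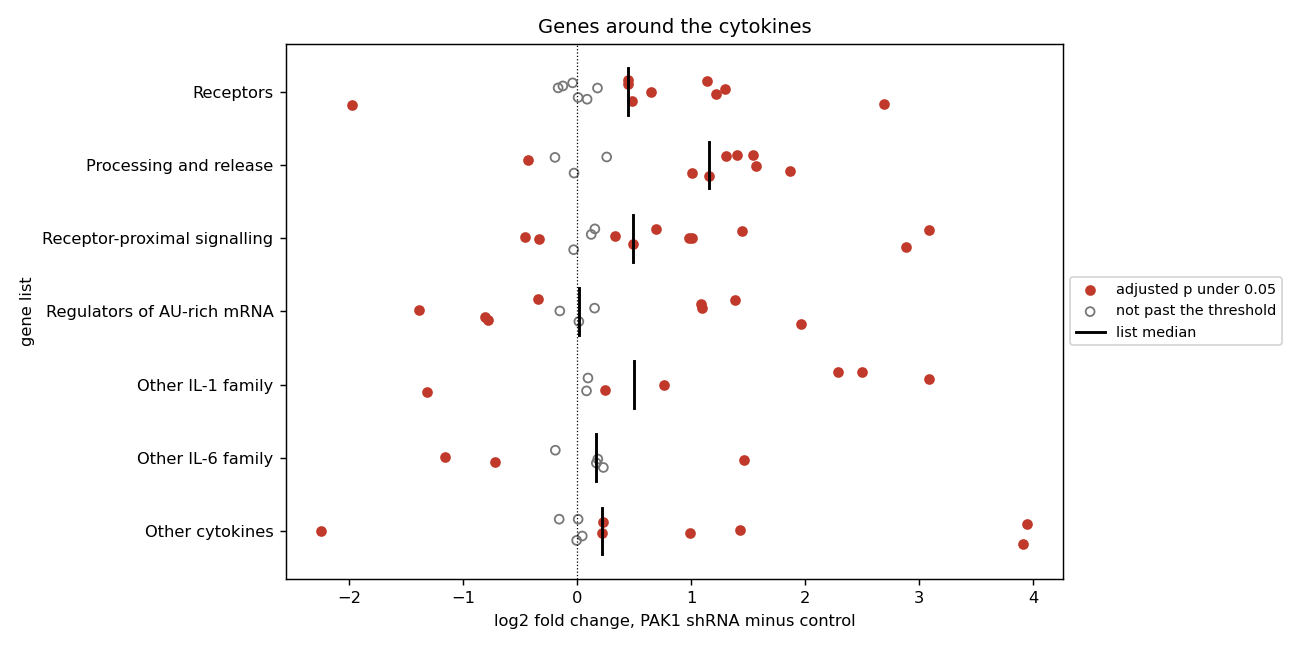
Log2 fold change of each tested gene, PAK1 shRNA minus control (x axis), in 7 lists of genes around the cytokines, with genes past an adjusted p of 0.05 filled, others open and black bars at the list medians (vertical scatter has no meaning). Processing and release has the highest median, 1.16, and regulators of AU-rich mRNA have genes on both sides of a median of 0.015, while IL1R2 and IL2RB are drawn at their fitted values.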

How the data were processed

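The 4 arrays were grouped by their labels. Deposited by the authors were the spot intensity values written by Agilent Feature Extraction 9.5 (9.5.3.1 in the file headers), with no scaling between arrays, and a table of normalized log2 values of the same arrays, used as an alternative only. Probe positions are those of the files (hg19).

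Mean and background signals were corrected with normexp (offset 50). The fit left out spots of flagged local background, which distort it on the control arrays. Control and flagged spots were dropped, arrays were quantile normalized, and repeated spots were averaged per probe. A probe entered if it was well above background throughout 1 group or both, and the brightest probe stood for its gene. The test was limma's (version 3.58.1, R 4.3.3; lmFit, then eBayes), adjusted by Benjamini-Hochberg over 21921 genes and a threshold of 0.05. Where a flagged spot was dropped, the gene was fitted on the remaining arrays. Precision is limited by the 4 arrays. On simulated data for this comparison (21921 genes, 200 changed), the test recovered 88% of genes with a log2 change of 1 and 15% of genes with a log2 change of 0.5, with 2 unchanged genes called. In the data 62.6% of genes were called, so the adjustment was stricter in the simulation. Its shares therefore do not give the sensitivity of the test on these data.

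The cytokine genes, gene lists and markers were chosen with earlier results of these data known, so lists were counted and not tested. Named were all cytokine genes and receptors, PAK1, the 4 called genes of each other list with the largest change, and the 3 genes nearest to IL6. Genes that complete a count of 5 or fewer, with those compared beside them, were named after their values were seen. Some list genes are not reported here by name. Promoter sequences are from RefSeq (GRCh38.p14). The background correction, normalization, filter, flags and probe rule were varied in turn, as were the values used, the test, the threshold, the replicate number as a block and the arrays included. The lists and the promoter search were not varied.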

Additional observations from a re-analysis of the deposited data

How the results depend on the processing

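The number of cytokine genes called higher was 10 under each other background correction, scaling by the 75th percentile, cyclic loess, median centring, no filter, flagged spots kept, the mean over probes and the intensity trend. It was 9 at an adjusted p under 0.01 and 9 with each array left out. It was 8 in the authors' table, where IL6 and TNF have no value, and 7 with probes well above background on all arrays, where CSF2, TNF and IL15 drop out. All 15 probes taken apart were called. It was 6 at 2-fold or more and 6 by an unpaired Student t-test, adjusted or not. The paper names that test in its general statistics, and moderated limma tests for the arrays. The unpaired test did not call IL1A (0.41), IL1B (0.71), TNF (4.44) and CSF2 (0.79). Its adjusted p was 0.16 for IL1A, 0.14 for IL1B and 0.17 for CSF2. IL1A (0.41) also missed the threshold of 0.01. Over all genes, 4141 were higher and 4520 lower by the adjusted unpaired test, and 1929 and 1995 at 2-fold or more. Without scaling between arrays, chosen after seeing the data, IL1A was -0.099, IL1B 0.28 and IL15 0.54, 7 cytokine genes were called, and 2362 genes were higher. These counts rest on that fit's own adjusted p-values, and the lack of scaling is its only difference from the values reported.

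With 1 array left out, 5625 to 6274 genes were higher and 5955 to 6636 lower. The log2 fold changes ran from 0.29 to 0.53 for IL1A, 0.53 to 0.88 for IL1B, 2.34 to 2.47 for IL1RN, 6.53 to 7.36 for IL6, 4.15 to 4.83 for TNF, 3.27 to 3.54 for LIF, 0.91 to 1.00 for CSF1, 0.55 to 1.07 for CSF2, 4.55 to 5.37 for CSF3, 1.04 to 1.08 for IL15 and -0.80 to -0.72 for PAK1. TNF could not be fitted without control replicate 2, nor IL15 without PAK1 shRNA replicate 1. The lone array of a group is assumed to vary like the others.

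Arrays of the same replicate number did not deviate together (r = 0.012 over 21032 genes), and the labels state no pairing, so the block is given as an alternative only. With the replicate block, 10 cytokine genes, 6905 higher and 7102 lower genes were called.

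List medians under other settings included the following, and the cause of their shifts was not tested. With normexp fitted on all spots they were 0.35 (receptors), 1.08 (processing), 0.42 (IL-1 family), 0.089 (IL-6 family) and 0.12 (other cytokines). Without background correction they were 0.42 (receptors), 0.44 (IL-1 family) and -0.086 (IL-6 family), and with an offset of 16 they were 0.56 (IL-1 family) and 0.24 (IL-6 family). With the 75th percentile they were 0.49 (receptors), 1.31 (processing), 0.67 (IL-1 family), -0.091 (IL-6 family) and 0.52 (other cytokines). With cyclic loess they were 0.46 (receptors), 1.31 (processing) and 0.092 (AU-rich), and with median centring 0.38 (receptors), -0.045 (AU-rich), 0.59 (IL-1 family) and 0.35 (other cytokines). Without the filter they were 0.28 (IL-1 family) and 0.13 (other cytokines), and with probes above background on all arrays 1.23 (processing), 0.76 (IL-1 family) and 0.13 (other cytokines). With flagged spots kept the receptors were at 0.45, with the mean over probes AU-rich was at 0.11 and the IL-6 family at 0.030, and in the authors' table receptors were at 0.44, processing at 1.21 and the IL-6 family at -0.14. With 1 array left out, receptors ran from 0.33 to 0.48, processing from 1.11 to 1.22, signalling from 0.36 to 0.60, AU-rich from -0.019 to 0.051, the IL-1 family from 0.47 to 0.54, the IL-6 family from -0.21 to 0.14 and other cytokines from 0.19 to 0.24. The signalling median was also 0.39 with normexp fitted on all spots and 0.41 without the filter. It was 0.42 with median centring and 0.55 with the 75th percentile. Medians with each probe apart were not run.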

Other observations

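Cytokine genes related to the 10 did not all move with them. Of 8 tested members of the wider IL-1 family, 5 were higher, 1 was lower and 2 did not pass the threshold, with a median log2 fold change of 0.50. IL36G, an epithelial agonist listed on the array as IL1F9, rose by 3.09 (standard error 0.24, adjusted p = 5.4e-05, limma), the alarmin IL33 by 2.50 and IL18BP, which neutralizes IL-18, by 2.29. IL18 rose by 0.76 and IL36A by 0.24. The anti-inflammatory IL37, listed as IL1F7, fell by 1.31. IL1RL1 and IL36RN were dim and not tested.

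Of 7 genes of the wider IL-6 family, CLCF1 rose by 1.46 (standard error 0.14, adjusted p = 0.00013, limma), whereas IL11 fell by 1.15. OSM (log2 fold change 0.17), CNTF (-0.19), CTF1 (0.23) and IL27 (0.18) did not pass the threshold, and the list median was 0.17.

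Of 11 other cytokine genes tested, 6 were higher, 1 lower and 4 not past the threshold, with a median of 0.22. LTB, a TNF relative, rose by 3.95 (standard error 0.24, adjusted p = 1.9e-05, limma), IL24 by 3.91 and IL7 by 1.43. KITLG, the ligand of KIT, fell by 2.24 (standard error 0.13, adjusted p = 1.6e-05, limma), from 10.40 and 10.57 to 8.42 and 8.07. FLT3LG rose by 0.99 with PAK1 shRNA 2 left out for a flagged spot, LTA and IL12A rose by 0.23 and 0.22, and TSLP was dim and not tested.

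The 3 genes whose 4 array values, each centred on its own mean, lay nearest to those of IL6 among 21032 genes measured on all 4 arrays were IL28B (Euclidean distance 0.24 on the log2 scale), CH25H (0.36) and CSAG1 (0.45). IL28B, which encodes an interferon lambda, was not well above background in control cells and was higher by at least 122-fold in PAK1 shRNA cells. CH25H, which encodes a cholesterol hydroxylase, rose by 6.70 and CSAG1 by 6.63. With 4 arrays, this likeness largely restates a similar log2 fold change.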
